A study of Mus musculus with 6 samples.

Results

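The genes described here are 10 immediate early genes of the Egr, Ier and Klf families: Egr1, Egr2, Egr3, Ier2, Ier3, Ier5, Klf2, Klf4, Klf6 and Klf10. They were taken by gene symbol from a table of 18057 genes, and all 10 were found. Of these, 8 reached a mean of 1 FPKM over the libraries, the level set for testing, while Egr2 and Egr3 stayed below it. FPKM scales a gene's reads by its length and by the size of the library, so it can be compared between genes.

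The values come from 3 RNA-seq libraries of 4T1 mouse mammary tumour cells treated with BRQ and 3 of the same line treated with DMSO, the solvent control. The title of the series speaks of inhibiting DHODH, an enzyme of mitochondria in the pathway to pyrimidine nucleotides, and the question is which transcripts differ with BRQ. Dose and duration are not given in the labels used here. The letters DHO stand unexplained in the titles of both groups, and a second agent given to both cannot be told from the labels. No label says whether the libraries came from separate cultures, so p-values measure the spread between these libraries, which may be technical.

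Immediate early genes are transcribed within minutes of a stimulus such as serum, a growth factor or stress, without new protein synthesis. Their promoters are held ready for serum response factor (SRF), its ETS partners and CREB, which kinases of the ERK and p38 cascades activate, and their messages are short-lived. Egr and Klf proteins bind DNA through zinc fingers at GC-rich sites and pass the signal on to later genes, whereas the Ier genes encode small proteins without zinc fingers.

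Promoters are shown for Ier3 and Ier5, both higher under BRQ, and for Klf6, lower under BRQ, so that their sequences can be set beside opposite changes. These are the 250 bases before the annotated start, from RefSeq on GRCm38.p6, read 5′ to 3′ on the gene's strand. Capitals mark every match, on either strand, to the GC box GGGCGG, the ETS core GGAAG, the CRE palindrome TGACGTCA, its core TGACG or the CArG box of SRF. The Ier3 window lies at chr17:35821463-35821712 on the plus strand, that of Ier5 at chr1:155099637-155099886 on the minus strand, and that of Klf6 at chr13:5861239-5861488 on the plus strand.
Ier3: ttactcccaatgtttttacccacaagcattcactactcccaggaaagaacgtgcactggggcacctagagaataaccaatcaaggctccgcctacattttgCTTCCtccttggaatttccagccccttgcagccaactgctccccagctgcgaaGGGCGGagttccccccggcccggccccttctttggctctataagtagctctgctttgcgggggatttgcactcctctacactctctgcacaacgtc
Ier5: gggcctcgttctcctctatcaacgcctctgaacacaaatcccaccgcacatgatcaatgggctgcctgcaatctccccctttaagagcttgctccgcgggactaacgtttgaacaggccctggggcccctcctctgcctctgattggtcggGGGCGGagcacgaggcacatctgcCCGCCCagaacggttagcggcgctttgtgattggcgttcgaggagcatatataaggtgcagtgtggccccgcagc
Klf6: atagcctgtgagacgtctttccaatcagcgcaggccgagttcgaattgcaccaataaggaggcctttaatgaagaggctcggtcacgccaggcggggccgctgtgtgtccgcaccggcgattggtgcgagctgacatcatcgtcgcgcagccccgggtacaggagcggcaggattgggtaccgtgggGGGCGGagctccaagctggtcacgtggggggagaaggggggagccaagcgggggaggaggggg

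The reference table held 1 promoter each for Ier3, Ier5, Klf2, Klf4 and Klf6, and 5 for Egr2. Egr1, Klf10 and Ier2, the tested members that rose most, and Egr3 had none there, so their promoters were not searched. In these 300-base promoters, which run 50 bases past the start, the GC box was found in 5 of the 5 genes with a single promoter, against 35.7% of all 32851 promoters. The ETS core was found in 4 of 5, against 71.4%, and the CRE core in 2 of 5, Klf2 and Klf4, against 20.8%. Neither the CRE palindrome, held by 1.79% of all promoters, nor the CArG box, held by 1.63%, was found in the 5. Klf6, the gene that fell, held a GC box and an ETS core, as did Ier3 and Ier5, which rose. The ETS cores of Ier5 and Klf6 lie past the start and so outside the 250 bases printed. The GC content was 54% for Ier3, 59% for Ier5, 63% for Klf6, 69.3% for Klf2 and 74.3% for Klf4, against a median of 52.7%.

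**Figure D1:**
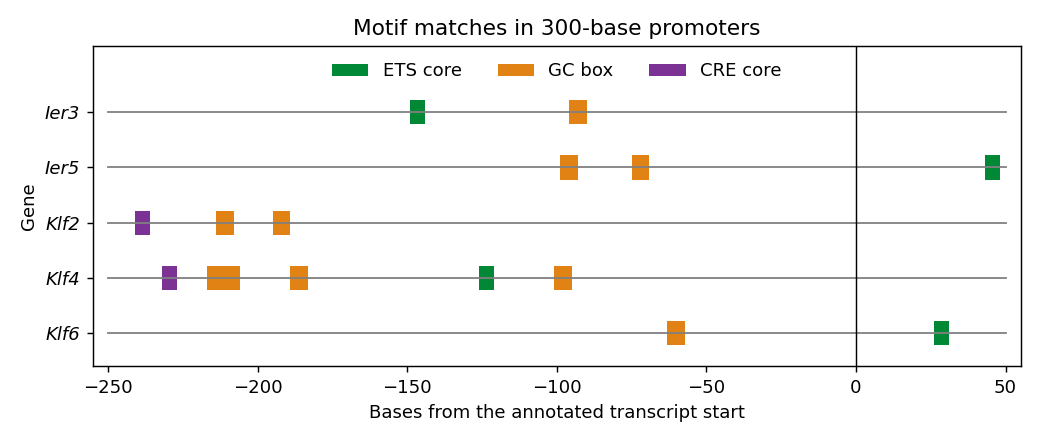
Matches to 3 motifs along the 300-base promoters of Ier3, Ier5, Klf2, Klf4 and Klf6, with bases from the annotated transcript start on the horizontal axis and 1 line per gene. Orange blocks (GC box) appear on all 5 lines, green blocks (ETS core) on 4 and violet blocks (CRE core TGACG) on those of Klf2 and Klf4.

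Egr2 held CArG boxes in 4 of its 5 promoters, at 2 places. They are shown because SRF binding to such boxes is the textbook route of immediate early induction, each with 10 bases on either side and the box in capitals. The upstream one lies at chr10:67537484-67537513 and the downstream one at chr10:67537787-67537816, both on the plus strand of GRCm38.p6.
Egr2 upstream: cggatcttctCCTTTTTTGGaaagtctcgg
Egr2 downstream: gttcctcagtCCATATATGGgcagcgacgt

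BRQ was accompanied by higher transcripts of 7 of the 8 tested genes and lower transcripts of 1, Klf6. Egr1 rose 5.01-fold, Klf10 2.81-fold, Ier2 2.57-fold and Ier5 2.18-fold in mean FPKM, while Klf6 fell 2.25-fold. Ier3, Klf2 and Klf4 rose by smaller amounts. These counts stand on a broad change: with limma on log2(FPKM + 1) at an adjusted p under 0.05, 82.4% of all 10552 tested genes were called, 48.7% higher under BRQ and 33.7% lower. When the libraries were centred on each other by median-ratio scaling, TMM or quantiles, 41.6%, 41.4% and 40.3% of all genes were higher and 41.2%, 41.4% and 42.0% lower. The values of the BRQ and DMSO libraries did not overlap for all 10 genes, which was also so for 83.7% of tested genes. A change of at least 2-fold upward was found for 4 of the 8 tested members and for 10.1% of all tested genes, and one of at least 2-fold downward for 1 of the 8 and 4.87%. The median log2 fold change was 0.84 over the 8 and 0.12 over all tested genes. In bulk RNA, a change in the number of cells that carry a transcript and a change in its amount per cell cannot be told apart.

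**Figure D2:**
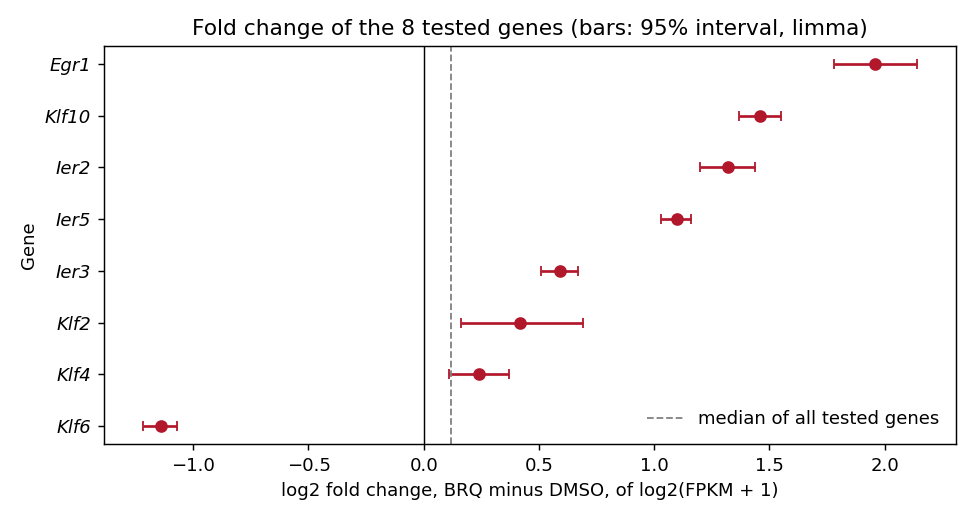
Log2 fold change (BRQ minus DMSO, on the log2(FPKM + 1) scale) of the 8 tested genes with 95% intervals from limma, ordered from Egr1 (1.96) at the top to Klf6 (-1.14) at the bottom. The interval of Klf4 reaches the dashed median of all tested genes (0.12), and those of Egr1, Klf10, Ier2, Ier5, Ier3 and Klf2 lie above it.

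Egr1, a zinc finger factor that is the best known member of its family, measured 13.2, 12.2 and 13.01 FPKM in the BRQ libraries and 2.95, 2.56 and 2.16 FPKM in the DMSO libraries. Its 3 BRQ values were all over 4 times any DMSO value. The log2 fold change was 1.96 (SE 0.0808, n = 3 each, limma adjusted p = 1.18e-08), the 36th largest rise among all tested genes. These levels rest on 1388, 1245 and 1372 reads under BRQ and 309, 245 and 226 reads under DMSO.

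The 2 other Egr genes were scarce. Egr2, known for its part in myelination and in macrophages, had 57, 45 and 68 reads under BRQ and 42, 20 and 9 under DMSO, or 0.444, 0.361 and 0.529 FPKM against 0.329, 0.171 and 0.0704 FPKM. Egr2 was the most uneven of the 10 genes: its coefficient of variation over the DMSO libraries was 68.5%, where counting its reads alone would give 20.6%. Egr3, a factor of muscle spindles and lymphocytes, had 64, 68 and 69 reads under BRQ and 35, 36 and 41 under DMSO, or 0.452, 0.494 and 0.486 FPKM against 0.249, 0.279 and 0.291 FPKM. Its coefficients of variation, 4.69% under BRQ and 8.02% under DMSO, lay below the 12.2% and 16.4% from counting its reads alone. The lowest BRQ value of Egr3 exceeded its highest DMSO value, as did that of Egr2, but both genes stayed under 1 FPKM in every library.

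A test that kept such low genes gave both a call. With limma and no filter, where 55.5% of 17181 genes were called, 33.2% higher and 22.3% lower under BRQ, the difference was 0.28 for Egr2 (SE 0.0868, adjusted p = 0.0337) and 0.22 for Egr3 (SE 0.0241, adjusted p = 0.000466) on the log2(FPKM + 1) scale, which compresses low values. With limma-voom on the reads of all 12581 genes averaging at least 10 reads, 77.6% of them called, 46.1% higher and 31.5% lower, the log2 fold change was 1.45 for Egr2 (95% interval 0.50 to 2.40, adjusted p = 0.00623) and 0.80 for Egr3 (0.11 to 1.49, adjusted p = 0.0317). These intervals are wide, so how far Egr2 and Egr3 changed is less certain than for Egr1. The small SE of Egr3 without a filter rests on libraries that lay closer together than counting error alone would give. Of the summed FPKM of the 3 Egr genes, Egr1 made up 93.3 ± 0.458% under BRQ and 84.8 ± 1.03% under DMSO (SD, n = 3 each).

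Ier3, whose product is linked to survival under stress and to ERK signalling, was the most abundant of the 10 in both groups. It measured 306, 303 and 316 FPKM under BRQ and 195, 204 and 216 FPKM under DMSO. The groups did not overlap, and the log2 fold change was 0.59 (SE 0.0363, limma adjusted p = 1.64e-07), a 1.51-fold rise that placed it 2279th among the tested genes. As it was already abundant, Ier3 added more FPKM than any other member (104 FPKM, against 10.2 for Egr1).

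Ier2, a nuclear protein gene induced by growth factors, measured 58.7, 55.2 and 54.1 FPKM under BRQ and 22.4, 23.1 and 19.98 FPKM under DMSO (log2 fold change 1.32, SE 0.0545, limma adjusted p = 1.19e-08). Ier5, whose product acts on the heat shock factor HSF1, measured 59.4, 59.8 and 58.7 FPKM under BRQ and 26.9, 27.4 and 27.2 FPKM under DMSO (1.10, SE 0.03, adjusted p = 1.04e-09). Both genes more than doubled, with no overlap between groups. The BRQ and DMSO libraries of Ier5 each varied by under 1% of their mean (0.957% under BRQ, 0.948% under DMSO), the least of the 10 genes under BRQ. Counting the reads of Ier5 alone would give more, 1.23% under BRQ and 1.84% under DMSO. Because Ier2 and Ier5 rose by more than Ier3, the share of Ier3 in the summed FPKM of the 3 Ier genes was 72.8 ± 0.794% under BRQ and 80.7 ± 1.22% under DMSO (SD, n = 3 each).

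**Figure D3:**
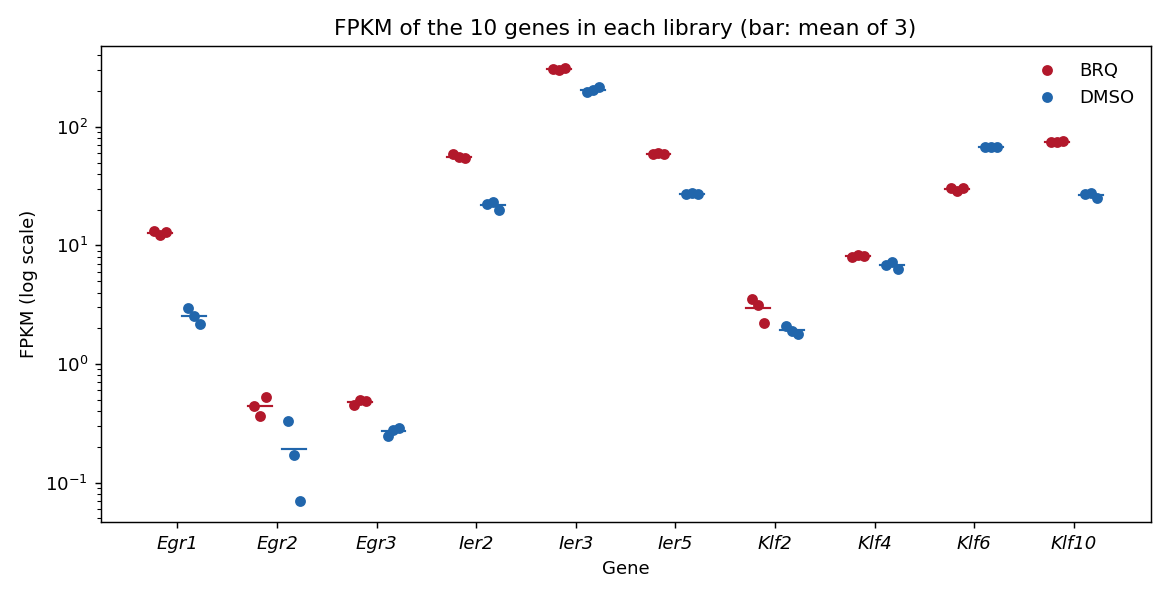
FPKM of the 10 genes in each of the 6 libraries on a log axis, BRQ in red left of DMSO in blue, with a bar at the mean of 3. All BRQ points lie above the DMSO points of the same gene, except for Klf6, where they lie below, and the 3 DMSO points of Egr2 are the most scattered.

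The Klf genes moved in opposite directions. Klf10, also known as a gene induced early by TGF-beta, measured 74.7, 73.8 and 76.2 FPKM under BRQ and 27.2, 27.6 and 25.1 FPKM under DMSO. All 3 BRQ values were more than 2 times the highest DMSO value, and its log2 fold change of 1.46 (SE 0.0393, limma adjusted p = 1.01e-09) was the 197th largest rise. Klf6, described as a tumour suppressor in several tissues, measured 30.7, 29.003 and 30.3 FPKM under BRQ and 67.5, 67.8 and 67.0 FPKM under DMSO. It more than halved in every BRQ library (log2 fold change -1.14, SE 0.0324, adjusted p = 1.31e-09), the 180th largest fall of all tested genes.

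Klf10 and Klf6 thus exchanged places. The ratio of Klf10 to Klf6 in FPKM was 2.44, 2.55 and 2.52 in the BRQ libraries and 0.404, 0.406 and 0.375 in the DMSO libraries. Klf10 held 64.5 ± 0.66% and Klf6 25.8 ± 0.434% of the summed FPKM of the 4 Klf genes under BRQ, against 25.9 ± 0.723% and 65.6 ± 1.05% under DMSO (SD, n = 3 each). The sum itself differed far less, at 116 ± 1.48 FPKM under BRQ and 103 ± 2.24 FPKM under DMSO.

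**Figure D4:**
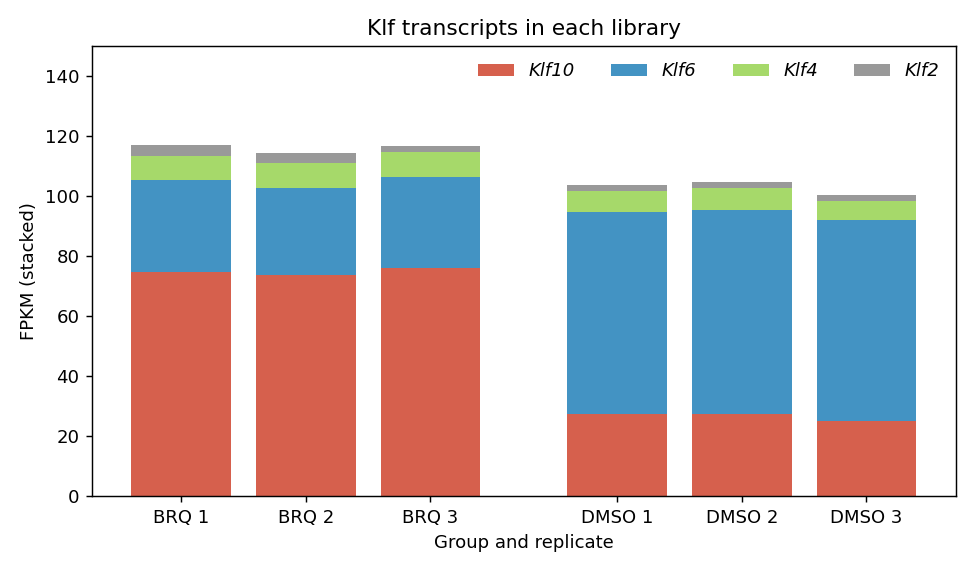
Stacked FPKM of Klf10, Klf6, Klf4 and Klf2 in each library, BRQ libraries on the left and DMSO libraries on the right. Klf10 (red) forms the larger part of every BRQ bar and Klf6 (blue) of every DMSO bar, while bar heights average 116 FPKM under BRQ and 103 FPKM under DMSO.

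Klf4, a factor of epithelial differentiation and pluripotency, measured 8.05, 8.34 and 8.18 FPKM under BRQ and 6.80, 7.25 and 6.34 FPKM under DMSO. The groups did not overlap, but the rise was the smallest of the 7 (log2 fold change 0.24, SE 0.0564, limma adjusted p = 0.00275). It lay close to the median of all genes. Its call was lost after median-ratio scaling (0.13, adjusted p = 0.0642) and TMM scaling (0.12, adjusted p = 0.0672), and when only replicate 1 stood for BRQ (0.22, adjusted p = 0.0599), within a range of 4.56e-05 to 0.0672 over its 16 alternatives. Klf2, which keeps endothelial and lymphoid cells quiescent, measured 3.52, 3.16 and 2.23 FPKM under BRQ and 2.10, 1.91 and 1.79 FPKM under DMSO. Its highest DMSO value and its lowest BRQ value nearly met. The log2 fold change was 0.42 (SE 0.117, adjusted p = 0.00677). It ranged from 0.32 without BRQ replicate 1 to 0.63 with that library as the only one given BRQ. The coefficient of variation of Klf2 over the BRQ libraries was 22.4%, against 7.39% from counting its reads alone.

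Whether members of a family changed unequally was tested by exact two-sided permutation of the 6 libraries on the difference of log2(FPKM + 1) within each pair, a scale that compresses genes under 1 FPKM such as Egr2 and Egr3. Of 12 pairs, 10 had differences that did not overlap between groups, a share close to the 82.2% found over all 55667076 pairs of tested genes. Each was at an exact p = 0.1 (adjusted p = 0.12), the smallest that 3 against 3 allows, so no pair could pass 0.05. Klf6 over Klf10 had a difference of -1.29 ± 0.032 under BRQ and 1.31 ± 0.0611 under DMSO (SD, n = 3 each). Egr2 over Egr3 (exact p = 0.7) and Klf2 over Klf4 (exact p = 0.4) had overlapping differences.

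Ranked by mean FPKM, the order under BRQ was Ier3 (308), Klf10 (74.9), Ier5 (59.3), Ier2 (56.0), Klf6 (29.98), Egr1 (12.8), Klf4 (8.19), Klf2 (2.97), Egr3 (0.478) and Egr2 (0.445). Under DMSO it was Ier3 (205), Klf6 (67.4), Ier5 (27.2), Klf10 (26.7), Ier2 (21.8), Klf4 (6.80), Egr1 (2.56), Klf2 (1.93), Egr3 (0.273) and Egr2 (0.190). Neighbours overlapped between libraries for Egr3 and Egr2 in both groups, and for Ier5 and Klf10 under DMSO. The level of Klf4 depends on its gene model: the length behind its FPKM was 7553 bases, whereas its longest coding transcript in GENCODE M21 has 3029 bases. The same length was used in all 6 libraries, so as a divisor it cancels in ratios between libraries. Which reads were counted also depends on the gene model, and its part in the Klf4 ratio was not tested.

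All 10 genes are short. Their genomic spans in GENCODE M21, an annotation of GRCm38, ran from 1.24 kb for Ier3 to 9.24 kb for Klf10, with 1 to 5 exons, against medians of 23.4 kb and 9 exons over 10295 tested genes. Each therefore fell in the shortest of 4 equal bins of genes, up to 10.4 kb, where the median log2 fold change was 0.48 and 71.8% of genes were higher under BRQ and 14.4% lower. In the bin of longest genes the median was -0.31, and 17.8% were higher and 65.4% lower. Set beside other short genes, 7 of 8 higher is therefore closer to the common share than it is beside all genes, and Klf6 was among the smaller number of short genes that fell. The part of gene length in these changes was not tested.

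**Figure D5:**
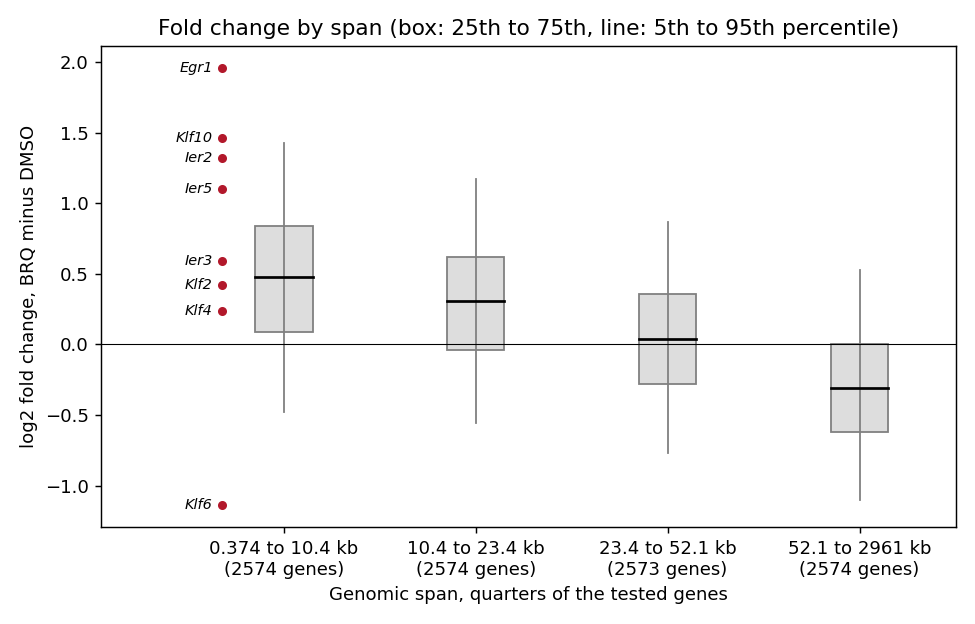
Log2 fold change (BRQ minus DMSO) of tested genes in 4 equal bins of genomic span, with boxes from the 25th to the 75th percentile, black lines for medians and whiskers from the 5th to the 95th percentile. The 8 tested genes are red points beside the bin of shortest genes: Egr1 and Klf10 lie above its 95th percentile (1.43), Klf6 (-1.14) lies below its 5th percentile (-0.48), and the others lie between.

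ATTTA pentamers (AUUUA in the message), the core of AU-rich elements through which many early messages are destabilised, were counted in the 3' untranslated region of each gene's longest coding transcript. Egr3 and Klf6 had 7, Ier3 had 5, Klf10 had 4 and Egr2 had 3, against a median of 2 over the tested genes. Egr1 and Ier5 had 2, Klf2 and Klf4 had 1 and Ier2 had none. At least 7 were held by 13.4% of tested genes, and Klf6, which fell, and Egr3, higher under BRQ, shared that number. These counts were not scaled to length. The regions of Klf6 (3114 bases) and Egr3 (2648) were longer than the median of 1126, and that of Ier3 (616) was shorter. The longer form TTATTTAWW, W being A or T, was found in 3 of the 10, Egr2, Egr3 and Klf10, against 17.8% of tested genes.

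Libraries differed in transcripts used as markers of other cells. Whether these came from other cells or from the 4T1 line was not tested. A list of 16 macrophage markers took 150, 230 and 227 RPM (reads scaled to the size of the library) in BRQ replicates 1, 2 and 3, against 71.7, 76.4 and 72.4 in the DMSO libraries, and 6 of its 6 tested genes were higher. The list split: Cd68, Cd74 and Cd14 were high in all 3 BRQ libraries (Cd68 took 62.6, 76.4 and 66.5 RPM under BRQ, against 26.2, 29.3 and 23.4 under DMSO). Lyz2 took 3.77, 37.4 and 38.4 RPM in BRQ replicates 1, 2 and 3, against 4.70, 5.13 and 5.69 under DMSO, and Ctss and Tyrobp were likewise high in BRQ replicates 2 and 3 alone. The remaining macrophage markers (Ptprc, Adgre1, Csf1r, Itgam, Fcgr1, Mrc1, Fcer1g, C1qa, C1qb and C1qc) were scarce, each at most 2.74 RPM in every library. Ptprc took 1.75, 1.26 and 1.54 RPM under BRQ and 2.26, 1.32 and 1.44 RPM under DMSO. A list of 10 hepatocyte markers took 33.7, 1.71 and 0.932 RPM in BRQ replicates 1, 2 and 3, against 32.2, 35.3 and 39.9 under DMSO, and 4 of its 5 tested genes were lower. Markers of endothelial cells (4.03 to 5.08 under BRQ, 0.930 to 1.79 under DMSO) and T cells (0.331 to 0.555 and 0.264 to 0.545) were scarce, and the summed fibroblast markers (63.7 to 70.9 RPM and 38.0 to 39.6 RPM) were nearly all Pdgfra. Pdgfra, the 1 fibroblast marker tested, took 60.8 to 67.9 RPM under BRQ and 35.4 to 36.9 RPM under DMSO and was higher, while the collagen genes, Dcn and Lum were each at most 1.37 RPM in every library. None of the 50 markers in all lists was at 0 in all 6 libraries. The 8 epithelial markers of the line, such as Krt8, Krt18, Epcam and Cdh1, were abundant throughout, at 2969 to 3038 RPM under BRQ and 3735 to 3826 under DMSO (3 higher, 5 lower). The shares called over all tested genes were 48.7% higher and 33.7% lower.

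In hepatocyte markers and Lyz2, replicates 2 and 3 of BRQ differed from the remaining 4 libraries. Without both, Egr1 kept its call (limma adjusted p = 1.05e-05), and log2 fold changes were 1.39 for Ier2, 0.58 for Ier3, 1.10 for Ier5, -1.11 for Klf6 and 1.45 for Klf10. Replicate 1 is then the only BRQ library, so the spread comes from the DMSO libraries and the lone library is assumed to vary as they do. Without BRQ replicate 1, they were 1.94 for Egr1, 1.29 for Ier2, 0.59 for Ier3, 1.10 for Ier5, -1.16 for Klf6 and 1.46 for Klf10. The part of other cells in the differences of the 10 genes was not tested.

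Relatives of the 10 genes did not follow them as a group. Of 15 further Egr, Ier and Klf genes, 14 were in the table and 8 were tested. Of these, 2 rose, 5 fell and 1 was not called, with a median log2 fold change of -0.47 against 0.12 for all genes. Among all tested genes, 48.7% were called higher and 33.7% lower. The largest rise was that of Ier5l, a relative of Ier5, with 55.9 ± 3.004 FPKM under BRQ and 11.7 ± 0.495 under DMSO (log2 fold change 2.16, SE 0.0482, limma adjusted p = 4.52e-10). The largest fall was that of Klf13, with 4.19 under BRQ and 9.66 under DMSO (-1.04, adjusted p = 8.32e-08). Named after their values were seen, Klf11, the closest relative of Klf10, rose too (0.53), and Klf3 (-0.78), Klf5 (-0.44), Klf7 (-0.85) and Klf9 (-0.51) fell.

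Genes that act upstream on immediate early promoters were divided, beside 48.7% called higher and 33.7% lower of all tested genes. Of 15 tested genes for SRF, its partners, CREB and their kinases, 4 rose and 7 fell (median log2 fold change -0.21). Under the 3 other scalings 2 of the 15 rose and 11 to 12 fell. Over all tested genes, those scalings gave 40.3% to 41.6% higher and 41.2% to 42.0% lower. Without BRQ replicate 1, 2 of the 15 rose. Elk1, an ETS partner of SRF, rose most, with 13.9 FPKM under BRQ and 9.08 under DMSO (0.56, SE 0.053, limma adjusted p = 3.92e-06), and Creb1 fell most, with 6.75 and 13.6 FPKM (-0.91, SE 0.0586, adjusted p = 2.23e-07). Srf itself, named after its values were seen, measured 29.7 FPKM under BRQ and 27.3 under DMSO (log2 fold change 0.12, limma adjusted p = 0.0287), a difference equal to the median of all tested genes. Of 17 tested genes of the ERK cascade, 6 rose and 8 fell (median 0.03), and 5 fell without BRQ replicate 2 and also without DMSO replicate 1. The largest changes were those of Hras (35.4 FPKM under BRQ, 21.8 under DMSO, 0.67) and the exchange factor gene Sos2 (6.93 and 13.2 FPKM, -0.84). Transcript levels do not report the activity of these kinases, which was not measured.

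Corepressors of Egr proteins and genes that act on the decay of early messages changed in both directions. Of 14 tested, 5 rose, 8 fell and 1 was not called (median -0.19), beside 48.7% higher and 33.7% lower of all tested genes. Tob1, which recruits the CCR4-NOT deadenylase, rose most, with 37.8 FPKM under BRQ and 10.9 under DMSO (log2 fold change 1.71, SE 0.0664, limma adjusted p = 8.41e-09). Hnrnpd, which encodes the AU-rich element binding protein AUF1, fell most, with 12.7 and 37.6 FPKM (-1.49, SE 0.0406, adjusted p = 1.02e-09). Named after their values were seen, the Egr corepressor genes Nab1 (18.8 FPKM under BRQ, 20.95 under DMSO, -0.15) and Nab2 (6.99 and 8.42, -0.24) fell slightly, while Zfp36, which binds AU-rich elements and is itself an immediate early gene, rose (27.6 and 10.6, 1.31). Its relatives on the list, also named after their values were seen, split: Zfp36l1 rose (44.5 and 22.7, 0.94) and Zfp36l2 fell (42.0 and 86.7, -1.03). Elavl1, whose product HuR is known to stabilise such messages, was likewise named after its values were seen and fell (14.7 and 20.4, -0.45).

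Among 18 tested immediate early genes of other families, 12 rose and 5 fell (median log2 fold change 0.56). Of all tested genes, 48.7% were called higher under BRQ and 33.7% lower. Btg2, an antiproliferative gene, rose most, with 16.0 FPKM under BRQ and 1.10 under DMSO (3.02), and Ccn1, a matrix protein gene, fell most, with 227 and 397 FPKM (-0.80). As with the Klf genes, early genes of one list changed in opposite directions, which was also so for tested genes at large.

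Over the 6 libraries, the centred log2(FPKM + 1) profile of Egr1 was most like those of Retsat, Nfatc2ip and 1810062G17Rik, with root mean square differences of 0.0501, 0.0649 and 0.0686. That of Klf6 was most like those of Carm1 (0.00841), Actb (0.0153) and Mndal (0.0156). Actb, the cytoplasmic actin gene often used as a loading control, measured 576, 542 and 560 FPKM under BRQ and 1216, 1216 and 1228 under DMSO. These are likenesses in 6 values that fall into 2 groups.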

How the data were processed

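The authors deposited 1 table of FPKM, with replicates not pooled. The tools fastp and HTSeq and the build GRCm39 are named, without their roles, per the submitters' processing notes. Aligner, annotation release, strand setting and versions: not given in the sources used here. Overlapping and antisense genes may therefore share reads. Columns of no sample of this series (8) were not used. The members and lists were chosen with earlier results of these data known.

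The 10552 genes averaging 1 FPKM or more entered a two-sided limma test (version 3.58.1, R 4.3.3, eBayes with an intensity trend, no covariates) of log2(FPKM + 1). Adjusted p is Benjamini-Hochberg over all tested genes, called under 0.05. Log2 fold changes are BRQ minus DMSO and understate those of low genes, and n-fold values are ratios of mean FPKM. Values of a gene are whole multiples of the worth of 1 read, so reads were recovered from the steps, whole within 4.4e-05 reads for all 10552 tested genes. Library totals were 33276908 to 34326044 reads under BRQ and 31176705 to 34095864 under DMSO. The recovered reads were used for limma-voom. Recovery and test were checked on simulated data. The simulation for the test changed few genes, as many upward as downward, unlike these data.

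All members are named. From each list the largest called rise and fall are named, and genes beyond this are marked. Profiles most alike are the 3 genes nearest Egr1 and Klf6. Alternatives were a pseudocount of 0.1, no filter or one at 5 FPKM, median-ratio, TMM and quantile scaling, a robust prior, the replicate number as a block, libraries left out and limma-voom. Limma-voom with a filter at 10 reads was added after seeing the data. Spans and 3' ends came from GENCODE M21 and promoters from RefSeq, both on GRCm38, by gene symbol. Protein sequences were not used here.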

Additional observations from a re-analysis of the deposited data

How the results depend on the processing

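Egr1, Ier2, Ier3, Ier5, Klf6 and Klf10 kept their direction and call under all 16 alternatives, and Klf2 under the 15 in which it was tested. Klf4 kept its direction in all 16 and lost its call in 3 (0.13 after median-ratio scaling, 0.12 after TMM scaling, 0.22 with BRQ replicate 1 alone, the lone library assumed to vary as the DMSO libraries do). None of these results reversed. With limma-voom at 10 reads, the log2 fold changes of Egr2 (1.45) and Egr3 (0.80) exceeded the untested 0.28 and 0.22, since that scale has no pseudocount of 1 FPKM. The SRF and CREB list gave 2 higher and 11 lower genes after median-ratio and after TMM scaling, and 2 and 12 after quantile normalization. Of all tested genes, 41.6%, 41.4% and 40.3% were higher after those scalings and 41.2%, 41.4% and 42.0% lower. Leaving out 1 library, the higher genes of the SRF and CREB list numbered 2 to 4. ERK cascade genes called lower numbered 5 to 7 without 1 library, and 5 with BRQ replicate 1 alone. Same-numbered libraries did not deviate together over the tested genes (correlations of 0.00398, -0.0324 and -0.0345). That cannot settle whether they were handled as pairs, which the labels do not say. With the replicate block, 5112 genes were higher and 3507 lower, and no member lost its call. Limma-voom on the recovered reads gave 5171 higher and 3611 lower, against 5143 and 3555 on log2(FPKM + 1). Egr2 (9 to 68 reads) and Egr3 (35 to 69) were the least deeply read members, and the DMSO libraries of Egr2 varied beyond counting error.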
